A study of Mus musculus with 18 samples.

Results

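The genes described here are a set of 10 regulators of the mouse circadian clock and of its output: Clock, Npas2, Cry1, Per1, Per2, Per3, Nr1d1, Nr1d2, Dbp and Tef. They were chosen by name, and each gene was represented by the probe annotated to that 1 symbol, taking the probe with the highest mean signal where there were several. By this rule 9 of the 10 were measured, out of 22180 genes with such a probe. The Per2 probe carries a second gene symbol, so no value is given for Per2. Liver RNA came from male C57BL6 mice in 6 groups of 3 biological replicates, with 1 array per mouse. The diets were a low-fat diet with 10% of energy from fat (LFD) and a high-fat diet with 45% (HFD), which the mice ate freely for 12 weeks, from the age of 6 weeks to that of 18 weeks. Mice received the diet alone, with perfluorooctane sulfonate (L-PFOS and H-PFOS on the low-fat and high-fat diet) or with perfluorononanoic acid (L-PFNA and H-PFNA). PFOS ends in a sulfonate and PFNA in a carboxylate. The sources used here give neither the doses nor the clock time of tissue collection. As the series title states, the study concerned the effect of diet on the fatty liver that PFOS and PFNA cause. For the clock genes, the comparisons address the effect of either compound within a diet and whether that effect depended on the diet.

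The circadian clock is a feedback loop of transcription. CLOCK or its relative NPAS2 pairs with BMAL1 (the product of Arntl) and activates genes through E-box sequences, among them the Per and Cry genes, whose proteins then repress the pair. The same activators drive Nr1d1 and Nr1d2, which encode the haem-binding repressors REV-ERB alpha and REV-ERB beta, and Dbp and Tef, which encode PAR bZIP factors that activate genes through D-box sequences. In liver these outputs time the genes of lipid, bile acid and foreign-compound metabolism, and feeding and glucocorticoids can shift the phase of the loop.

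The 250 bases before the transcription start were searched for these motifs in the RefSeq promoter windows of GRCm38.p6, where all 9 measured genes had at least 1 window and there were 13 windows in all. Both strands were searched. The E-box CACGTG was present in a window of 3 genes (Cry1, Per1 and Tef) and in 6.02% of 32851 windows of this length. The E-box variant CACGTT or its reverse complement AACGTG was present in Cry1 and Nr1d1, and in 3.85% of windows. A D-box (TTATGTAA, TTACATAA or TTACGTAA) was present in Per3 only among these genes, at 2 places, and in 0.931% of windows. The half-site of REV-ERB and ROR factors, AGGTCA or TGACCT, was present in windows of Clock, Per1 and Nr1d2 and in 14% of windows. In these windows no match overlapped another, and there was no match in the windows of Dbp or Npas2. The windows below are shown because they hold the palindromic E-box, or in Per3 the pair of D-boxes, through which the loop is known to act. They run 5′ to 3′ on the gene's strand, with the motif in capitals. The windows are chr10:85185055-85185304 on the minus strand for Cry1, chr11:69098699-69098948 on the plus strand for Per1, chr4:151044666-151044915 on the minus strand for Per3 and chr15:81802423-81802672 on the plus strand for Tef.
Cry1: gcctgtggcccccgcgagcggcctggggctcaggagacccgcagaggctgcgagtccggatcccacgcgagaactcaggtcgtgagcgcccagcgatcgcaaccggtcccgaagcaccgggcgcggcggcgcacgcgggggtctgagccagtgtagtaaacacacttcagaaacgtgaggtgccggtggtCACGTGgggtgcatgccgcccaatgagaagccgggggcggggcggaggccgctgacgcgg
Per1: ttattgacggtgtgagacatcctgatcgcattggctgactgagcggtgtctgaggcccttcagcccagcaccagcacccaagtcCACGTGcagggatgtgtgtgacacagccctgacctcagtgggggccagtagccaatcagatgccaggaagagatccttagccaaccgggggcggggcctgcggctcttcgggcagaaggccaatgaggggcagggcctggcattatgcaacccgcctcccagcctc
Per3: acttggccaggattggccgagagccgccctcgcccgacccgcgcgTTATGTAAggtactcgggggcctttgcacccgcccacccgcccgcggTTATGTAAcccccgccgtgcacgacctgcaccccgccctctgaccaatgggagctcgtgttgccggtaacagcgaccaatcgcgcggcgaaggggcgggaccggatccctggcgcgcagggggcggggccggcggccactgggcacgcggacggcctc
Tef: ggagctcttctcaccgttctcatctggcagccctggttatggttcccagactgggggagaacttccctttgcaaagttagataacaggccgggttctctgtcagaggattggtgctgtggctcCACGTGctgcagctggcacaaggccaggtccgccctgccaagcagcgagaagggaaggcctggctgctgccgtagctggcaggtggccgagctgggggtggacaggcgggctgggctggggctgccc
The E-box began 60 bases before the start of Cry1, 166 bases before that of Per1 and 127 bases before that of Tef. The 2 D-boxes of Per3 began 205 and 158 bases before its start. A match describes these letters and shows no binding.

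Signals are deposited array values read as log2, so a difference of 1 means a factor of 2 if that reading holds. The median signal of an array lay between 4.43 and 4.59. All 8 hepatocyte markers lay above the median of the probe means, and the array means of this list lay between 12.38 and 12.74. No neutrophil marker of 6 reached that median. The first principal component over all 34472 probes held 17.9% of the variance and set 5 arrays apart, namely all 3 H-PFOS arrays, L-PFOS replicate 3 and H-PFNA replicate 3. Their scores were 27.8 to 38.6, against -22.9 to -8.1 in the other 13 arrays. L-PFOS replicate 3 and H-PFNA replicate 3 thus stood apart from the arrays of their own groups. Some results for Per1, Cry1, Dbp, Tef, Nr1d1 and the pairs of clock genes are also given without them. Except where a result is stated without them, values for L-PFOS and H-PFNA include these arrays. In whole liver, fewer cells of a type and less RNA per cell cannot be told apart.

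None of the 9 measured clock genes was called in any of the 11 comparisons (limma with Benjamini-Hochberg adjustment over all probes, called at an adjusted p under 0.05). Over all probes, 0.389% were called in L-PFOS against LFD, 0.566% in L-PFNA against LFD, 1.02% in H-PFOS against HFD and 0.113% in H-PFNA against HFD. The share called was 0.00290% both in HFD against LFD and in H-PFNA against H-PFOS. It was 0% in L-PFNA against L-PFOS, in both interactions of diet with a compound, and in the 2 comparisons between diets within a compound (H-PFOS against L-PFOS and H-PFNA against L-PFNA). With so few probes called, a count of 0 among 9 genes lies near the background. At an unadjusted p under 0.05 there were 3 clock genes in L-PFNA against LFD, 2 in H-PFOS against L-PFOS, 1 each in HFD against LFD, L-PFOS against LFD, H-PFOS against HFD and H-PFNA against H-PFOS, and none in the other 5 comparisons. The corresponding shares of all probes ranged from 3.92% in L-PFNA against L-PFOS to 13.5% in H-PFOS against HFD. The size of difference that the arrays could exclude depended on the gene. The 95% intervals of the differences between 2 groups reached 0.25 to each side for Nr1d2, the narrowest, and 0.71 for Nr1d1, the widest.

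**Figure D1:**
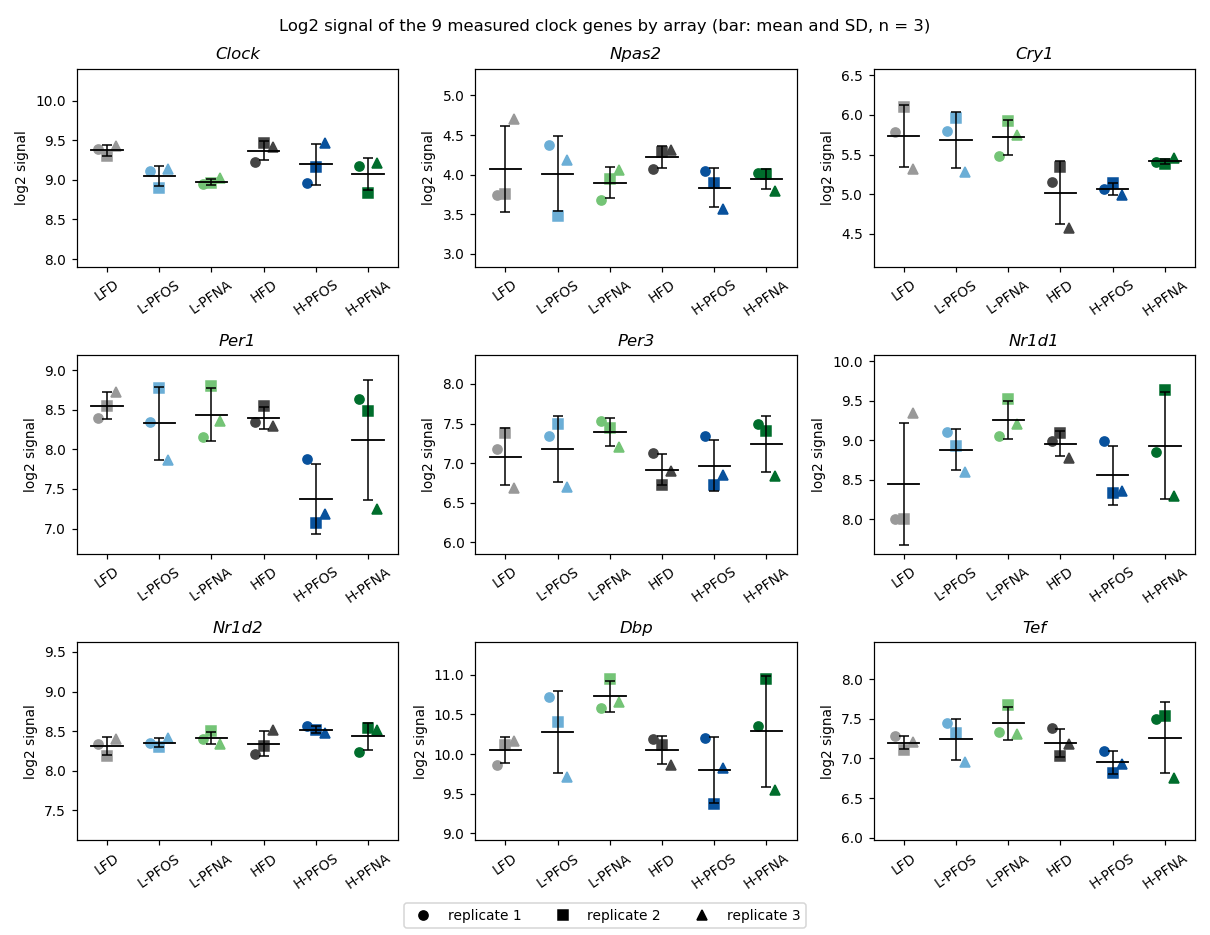
Log2 signal of each of the 9 measured clock genes (vertical axis, every panel spans the same number of log2 units) in the 6 groups (horizontal axis), with 1 point per array, the shape giving the replicate and the bars the mean and SD of 3 arrays. The 5 lowest Per1 signals are those of the 3 H-PFOS arrays, L-PFOS replicate 3 and H-PFNA replicate 3, and Nr1d2 stays between 8.18 and 8.56 on every array.

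Among the activators, every Clock signal in L-PFOS, L-PFNA and H-PFNA lay below every signal of the control of the same diet, but no difference was called. The Clock signal was 9.39, 9.30 and 9.43 in LFD, 9.11, 8.90 and 9.14 in L-PFOS, and 8.95, 8.96 and 9.02 in L-PFNA. On the low-fat diet every exposed array thus lay below every control array. The differences from LFD were -0.32 (SE 0.14, adjusted p = 0.368) for L-PFOS and -0.40 (SE 0.14, adjusted p = 0.208) for L-PFNA. On the high-fat diet Clock was 9.23, 9.47 and 9.41 in controls, 8.96, 9.16 and 9.47 in H-PFOS, and 9.18, 8.84 and 9.21 in H-PFNA. The H-PFNA arrays lay below all HFD arrays (difference -0.29, SE 0.14, adjusted p = 0.514), whereas H-PFOS overlapped them (-0.17, SE 0.14, adjusted p = 0.658). HFD and LFD means were both 9.37. Arrays that do not overlap are common on this platform, and were found for 15.7%, 19.4% and 13.7% of all probes in L-PFOS against LFD, L-PFNA against LFD and H-PFNA against HFD. Npas2, the relative that can replace CLOCK, gave signals between 3.48 and 4.70 with a mean of 4.0, under the median of the probe means of 4.48, so its level was not shown to be above background. Its largest difference was -0.39 (SE 0.24, adjusted p = 0.533) in H-PFOS against HFD.

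Per1, a repressor of the loop that is also induced acutely by glucocorticoids, had the largest difference of any clock gene. Its signal was 8.34, 8.55 and 8.29 in HFD and 7.88, 7.07 and 7.18 in H-PFOS, so all 3 exposed arrays lay below all 3 controls, a separation found for 2 of 9 clock genes (Per1 and Npas2) and 18.4% of all probes. The means were 8.39 ± 0.14 and 7.38 ± 0.44 (SD, n = 3), a difference of -1.02 (SE 0.31, 95% interval -1.67 to -0.36), which did not pass the test (adjusted p = 0.126). Leaving out 1 of these 6 arrays in turn gave differences of -1.27 to -0.86 and adjusted p-values of 0.092 to 0.32. The LFD arrays read 8.39, 8.55 and 8.72, and the low-fat exposed arrays 8.34, 8.78 and 7.86 with PFOS and 8.15, 8.80 and 8.36 with PFNA. Both sets overlapped the controls. In H-PFNA the values were 8.63, 8.48 and 7.25, so that replicate 3 was low and the others were within the range of controls. Against H-PFOS, Per1 in H-PFNA differed by 0.74 (SE 0.31, adjusted p = 0.657), and H-PFOS differed from L-PFOS by -0.95 (SE 0.31, adjusted p = 0.613). The interaction of diet with PFOS was -0.79 (SE 0.44, adjusted p = 0.806), so a different response on the 2 diets was not shown.

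The outcome of the test for Per1 turned on the arrays that stood apart. Without L-PFOS replicate 3 and H-PFNA replicate 3, Per1 was called in H-PFOS against HFD (-1.02, adjusted p = 0.0161), in H-PFNA against H-PFOS (1.18, adjusted p = 0.0211) and in H-PFOS against L-PFOS (-1.18, adjusted p = 0.0167). Neither array belongs to H-PFOS or HFD, so the difference between those groups stayed at -1.02. There, only the spread estimated over all groups and the adjustment over probes changed. Leaving these arrays out was a choice made from their own measurements, and both were low for Per1, so the calls are no independent evidence. The 5 arrays with a positive score on the first component held the 5 lowest Per1 signals, 7.07 to 7.88, against 8.15 to 8.80 in the other 13. In all, 273 probes (0.792%) lay wholly below and 717 (2.08%) wholly above the other arrays in the same way, and Per1 was the only clock gene of the set that did. The component was computed from all probes, so this is a description. In the same 5 arrays the peroxisomal and fatty acid enzymes Ehhadh, Acot1 and Cyp4a14, known to be induced through PPARA, held their 5 highest signals, with Acot1 at 10.80 to 11.74 against 8.35 to 10.12. Their part in the Per1 result was not tested.

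**Figure D2:**
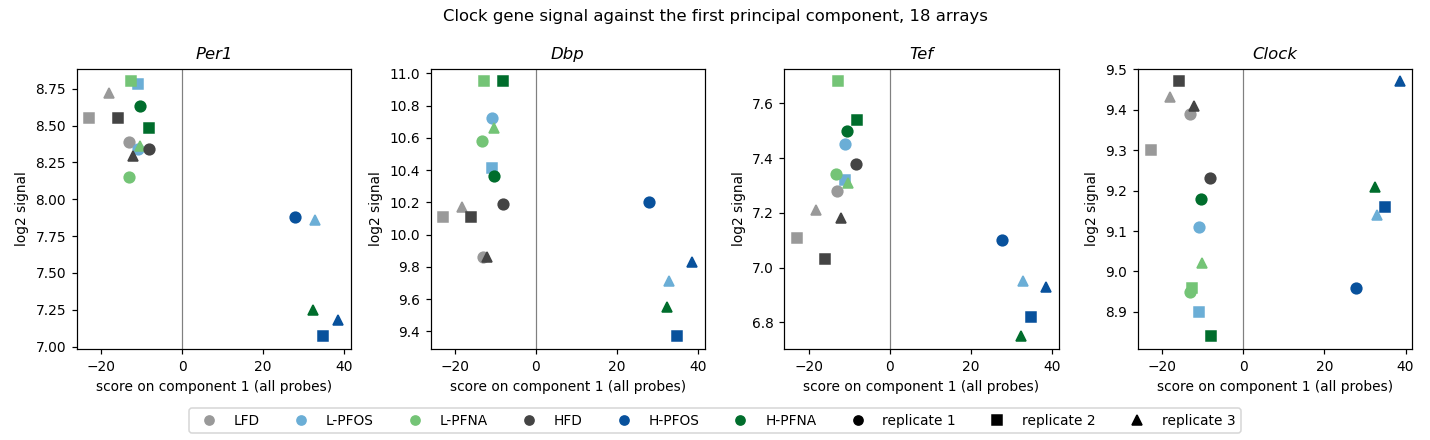
Log2 signal of Per1, Dbp, Tef and Clock (vertical axis) against the score of each array on the first principal component of all probes (horizontal axis), with colour for the group and shape for the replicate. The 5 arrays at scores of 27.8 to 38.6 lie below all 13 others for Per1, overlap them at the low end for Dbp and Tef, and span much of the range for Clock.

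The other measured repressors were Cry1 and Per3. For Cry1, a cryptochrome that holds the activators inactive, the largest difference was that between the control diets. Its signal was 5.79, 6.10 and 5.32 in LFD and 5.15, 5.34 and 4.57 in HFD, a difference of -0.72 (SE 0.22, adjusted p = 0.594), with 1 HFD array above the lowest LFD array. In the same comparison all 8 stellate cell markers had positive differences (median 0.50, none called). Of these, 5 had an unadjusted p under 0.05, as did 6.45% of all probes. The array means of the list were 8.04, 6.95 and 7.24 in HFD replicates 1, 2 and 3, against 6.78 to 7.04 in LFD. Replicate 1 was thus the highest, whereas the lowest Cry1 signal, 4.57, was that of replicate 3. The part of these markers in the Cry1 difference was not tested. Cry1 was 5.80, 5.96 and 5.28 in L-PFOS and 5.07, 5.14 and 4.99 in H-PFOS. The H-PFOS arrays lay below all L-PFOS arrays (-0.61, SE 0.22, adjusted p = 0.613). With PFNA the values were 5.48, 5.92 and 5.75 on the low-fat diet and 5.41, 5.38 and 5.45 on the high-fat diet, again without overlap (-0.30, SE 0.22, adjusted p = 0.997). Such separation between diets was found for 10.9% and 9.5% of all probes with PFOS and with PFNA. Of the differences from the control of the same diet, the largest was 0.39 in H-PFNA (SE 0.22, adjusted p = 0.598), where all exposed arrays lay above all HFD arrays, as for 13.7% of all probes. The others were -0.06 in L-PFOS, -0.02 in L-PFNA and 0.05 in H-PFOS (adjusted p of at least 0.951). Without the 2 arrays apart from their groups, L-PFOS was at 0.14 (adjusted p = 0.856), and H-PFOS against L-PFOS at -0.81 (adjusted p = 0.0837). The 3 high-fat groups held the 3 lowest Cry1 means. The step from H-PFOS to H-PFNA was the 1 step of 45 between neighbouring group means, over all 9 genes, without overlap of arrays. Between these 2 groups the arrays did not overlap for 10.3% of all probes, so this separation lay near the background. Per3, a period protein with a lesser part in the loop, read between 6.69 and 7.53 and differed from the control of its diet by at most 0.33 (SE 0.23, adjusted p = 0.706, H-PFNA against HFD).

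Of the REV-ERB genes, Nr1d1 varied within groups more than most probes and Nr1d2 less than most. Nr1d1 was 8.0, 8.0 and 9.34 in LFD, so that the control group alone spanned most of the range of the study, 8.0 to 9.64. In L-PFNA it was 9.05, 9.52 and 9.20, and the difference from LFD of 0.81 (SE 0.33, adjusted p = 0.301) ranged from 0.59 to 1.26 when 1 array was left out. L-PFOS read 9.11, 8.93 and 8.60, within the range of LFD. On the high-fat diet the controls were 8.99, 9.09 and 8.78, H-PFOS 8.99, 8.33 and 8.36, and H-PFNA 8.85, 9.64 and 8.30. No pair of groups on this diet was separated, and the differences from HFD were -0.39 (SE 0.33, adjusted p = 0.682) and -0.02 (SE 0.33, adjusted p = 0.99). The interactions of diet with PFOS and with PFNA were both -0.83 (SE 0.47), with adjusted p-values of 0.812 and 0.943. Nr1d2 stayed within 8.18 to 8.56, and its largest difference from a control was 0.17 (SE 0.12, adjusted p = 0.582) in H-PFOS.

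Dbp and Tef varied together across arrays, and both means were highest in L-PFNA. Dbp, the output gene with one of the steepest daily rhythms in liver, was 9.86, 10.11 and 10.17 in LFD, 10.72, 10.41 and 9.71 in L-PFOS, and 10.58, 10.95 and 10.66 in L-PFNA. All L-PFNA arrays lay above all LFD arrays (0.68, SE 0.30, 95% interval 0.06 to 1.31, adjusted p = 0.333), whereas L-PFOS spanned both sides of them (0.23, SE 0.30, adjusted p = 0.814). On the high-fat diet Dbp was 10.19, 10.11 and 9.86 in controls, 10.20, 9.37 and 9.83 in H-PFOS, and 10.36, 10.95 and 9.55 in H-PFNA. Replicate 3 of L-PFOS and of H-PFNA, the arrays apart on the first component, held the lowest Dbp value of their groups. The differences from HFD were -0.25 (SE 0.30, adjusted p = 0.788) in H-PFOS and 0.23 (SE 0.30, adjusted p = 0.859) in H-PFNA. Tef was 7.28, 7.11 and 7.21 in LFD and 7.34, 7.68 and 7.31 in L-PFNA, again without overlap (0.24, SE 0.19, adjusted p = 0.653). In the other groups it was 7.45, 7.32 and 6.95 in L-PFOS, 7.38, 7.03 and 7.18 in HFD, 7.10, 6.82 and 6.93 in H-PFOS, and 7.50, 7.54 and 6.75 in H-PFNA. For each of Dbp and Tef, 4 of the 5 arrays with a positive component score were among the 5 lowest. Without L-PFOS replicate 3 and H-PFNA replicate 3, Dbp differed from the control of its diet by 0.52 in L-PFOS (adjusted p = 0.359) and 0.60 in H-PFNA (adjusted p = 0.343), and Tef by 0.18 (adjusted p = 0.662) and 0.32 (adjusted p = 0.457). Between H-PFNA and H-PFOS the difference without them was 0.85 for Dbp (adjusted p = 0.0818) and 0.57 for Tef (adjusted p = 0.073), so these values too moved with the 2 arrays but were not called. Nr1d1 in H-PFNA against HFD changed sign, to 0.29 (adjusted p = 0.848).

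Markers of other cell types also differed from LFD in L-PFNA, and some did so in L-PFOS as well. All 8 sinusoidal endothelial markers were higher in every L-PFNA array than in every LFD array, with array means of the list of 8.26 to 8.33 against 7.51 to 7.97 and a median difference of 0.48, against -0.01 over all probes. None of the 8 was called, and the largest differences were those of Lyve1, a hyaluronan receptor (1.23, SE 0.30, adjusted p = 0.0683), and Oit3 (0.96, SE 0.21, adjusted p = 0.0518). Of the 8 Kupffer cell and macrophage markers, 6 were separated in the same direction, with array means of 7.86 to 8.22 against 7.0 to 7.74, led by Cd68 (1.27, SE 0.31, adjusted p = 0.0683) and Vsig4 (1.09, SE 0.36, adjusted p = 0.177). Of 6 measured lymphocyte markers, 5 were separated upward (median difference 0.45, array means of 4.88 to 5.10 against 4.5 to 4.62), led by Cd79a (0.68, SE 0.27, adjusted p = 0.283) and Cd79b (0.57, SE 0.16, adjusted p = 0.109), both of the B cell receptor. Of the 8 hepatocyte markers, 5 were separated downward (median difference -0.15, array means of 12.52 to 12.57 against 12.62 to 12.74). Another, Ttr, was separated upward (0.13, SE 0.11, adjusted p = 0.677). In this comparison the arrays did not overlap for 19.4% of all probes. The shift was not particular to L-PFNA. In L-PFOS the array means were 8.08 to 8.35 for the endothelial list and 7.53 to 8.26 for the macrophage list. Differences of L-PFOS from LFD were 1.08 for Lyve1, 0.77 for Oit3, 1.07 for Cd68 and 1.03 for Vsig4. Those of the clock genes were 0.43 for Nr1d1, 0.23 for Dbp and 0.04 for Tef. HFD, without a compound, differed from LFD by 0.83 for Lyve1, 0.29 for Oit3, 0.61 for Cd68 and 0.39 for Vsig4, none called. Differences of H-PFOS from HFD were -0.04 for Lyve1, 0.23 for Oit3, -0.26 for Cd68 and 0.18 for Vsig4. In H-PFNA they were -0.10, 0.29, 0.08 and 0.16, so the shift from LFD was not seen against HFD. LFD replicate 3, the LFD array high for Nr1d1, was also the highest LFD array for the endothelial and macrophage lists. Their part in the Nr1d1, Dbp and Tef values was not tested.

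**Figure D3:**
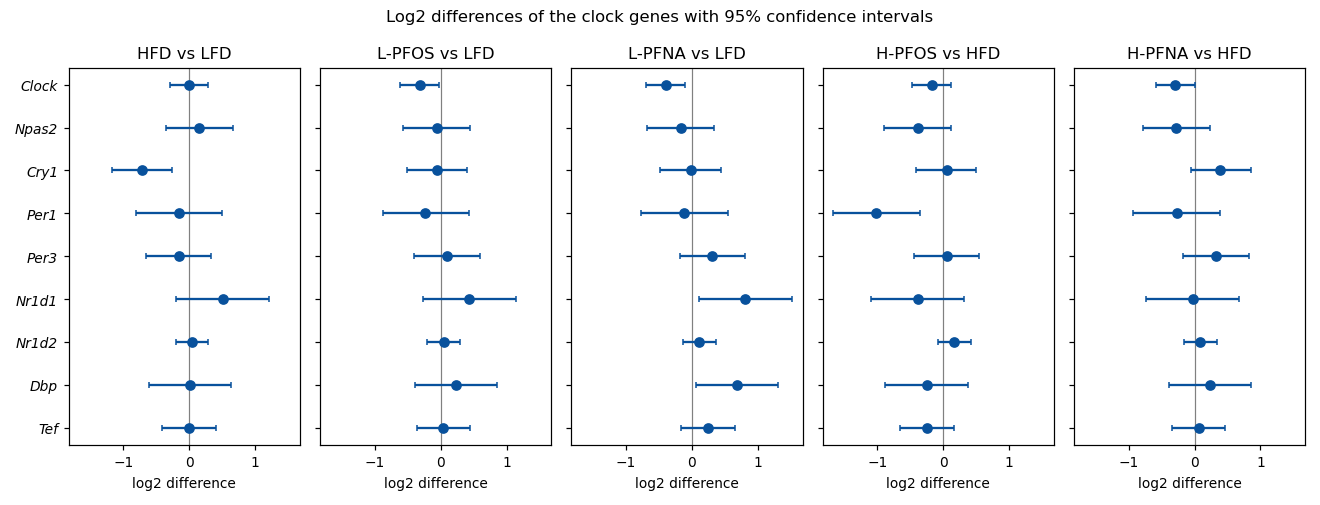
Log2 differences of the 9 clock genes (rows) in 5 comparisons (panels), as points with 95% confidence intervals from the fit of all 18 arrays, with 3 arrays in each group. Most intervals include 0, and those that do not, such as Per1 in H-PFOS against HFD (-1.67 to -0.36) and Cry1 in HFD against LFD (-1.17 to -0.26), belong to differences that were not called after adjustment over all probes.

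The scatter within groups was widest for Nr1d1, Per1 and Dbp. The within-group SD was 0.47 for Nr1d1, 0.43 for Per1 and 0.41 for Dbp, against a median of 0.19 over the probes at or above the median signal, which put these genes at the 96.9, 96.0 and 95.2 percentiles. Per3 (0.32), Cry1 (0.29) and Tef (0.25) followed at percentiles of 88.1, 83.6 and 73.4. Npas2 (0.33) lies below that signal level, and no percentile is given for it. Clock had an SD of 0.16 (percentile 30.5), and Nr1d2 had 0.11 (percentile 9.0). The clock time of tissue collection is not given, and its part in this scatter was not tested. Within-group variance made up 67.6% of the variance of Nr1d1 and 57.9% of that of Dbp, against a median of 60.1%, while it was 38.1% for Cry1 and 40.7% for Clock. The order of the group means therefore carries little weight for most of these genes, since arrays of neighbouring groups overlapped at all but 1 of the 45 steps.

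Across arrays the output genes tracked each other. Of 36 pairs of clock genes, 9 had an adjusted p under 0.05 for Pearson's r over the 18 arrays (two-sided permutation test, 100000 permutations), 11 for Spearman's rho, 6 for r over the 13 arrays with negative component scores, and 2 for the deviations from group means, in which group differences cannot enter. Both pairs of the last kind involved Dbp, and neither kept its call without the 2 arrays apart from their groups or without the 5 arrays of positive component score. The counts for r and rho over the 18 arrays include Per1 with Dbp and with Tef, and that for rho also Per1 with Cry1. Per1 has separate ranges in the 5 and the 13 arrays, so these pairs carry little weight. Dbp and Tef had r = 0.88 and rho = 0.88 (both p = 1e-05, the smallest the permutations can give, adjusted p = 0.00036), r = 0.83 without the 2 arrays farthest from the median, 0.76 over the 13 arrays (p = 0.00275, adjusted p = 0.0283) and 0.85 for the deviations (permutation p = 0.00227, adjusted p = 0.0409). Nr1d1 and Dbp had r = 0.78 (permutation p = 0.00017, adjusted p = 0.00204), rho = 0.80 (p = 0.00015, adjusted p = 0.0027), 0.88 without the 2 farthest arrays, 0.72 over the 13 (p = 0.00449, adjusted p = 0.0323) and 0.75 for the deviations (permutation p = 0.00093, adjusted p = 0.0335). Without the 2 arrays apart from their groups the deviations gave 0.56 for Dbp with Tef (permutation p = 0.0376, adjusted p = 0.338) and 0.68 for Nr1d1 with Dbp (permutation p = 0.0135, adjusted p = 0.338). Without the 5 arrays they gave 0.41 (permutation p = 0.18, adjusted p = 0.65) and 0.68 (permutation p = 0.0309, adjusted p = 0.329). Per3 had r = 0.74 with Dbp (permutation p = 0.0006, adjusted p = 0.00432, rho = 0.74, p = 0.0009), which became 0.77 without the 2 farthest arrays, and 0.58 (p = 0.0389, adjusted p = 0.156) within the 13.

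Clock had negative coefficients with Dbp, Tef and Per3. Its r with Dbp was -0.60 over 18 arrays (permutation p = 0.01, adjusted p = 0.04, rho = -0.64, p = 0.00527), -0.55 without the 2 farthest, -0.86 over the 13 (p = 0.00035, adjusted p = 0.0126) and -0.50 for the deviations (permutation p = 0.168, adjusted p = 0.336). With Per3 it was -0.67 (permutation p = 0.00353, adjusted p = 0.0172, rho = -0.65, p = 0.00423), -0.60 without the 2 farthest, -0.79 over the 13 (p = 0.00102, adjusted p = 0.0184) and -0.61 for the deviations (permutation p = 0.035, adjusted p = 0.128). With Tef it was -0.46 over 18 arrays (permutation p = 0.0574, adjusted p = 0.11, rho = -0.50, p = 0.0369), -0.35 without the 2 farthest, -0.71 over the 13 (p = 0.00679, adjusted p = 0.0407) and -0.46 for the deviations (permutation p = 0.159, adjusted p = 0.336). The r of Clock with Dbp over the 18 arrays includes differences between group means. The deviations, permuted within groups of 3 arrays, gave -0.50 and were not called. The part of the group differences in this relation was not tested. Per1 falls into separate ranges in the 5 and the 13 arrays, so no pooled coefficient over the 18 arrays is given for it. The deviations of Per1 from group means had r = 0.82 with Dbp (permutation p = 0.0109, adjusted p = 0.0783) and 0.81 with Tef (permutation p = 0.0138, adjusted p = 0.0827), over arrays that include L-PFOS replicate 3 and H-PFNA replicate 3, each low for all 3 genes within its group. Within the 13 arrays its r was 0.18 with Tef (permutation p = 0.565, adjusted p = 0.754) and 0.14 with Dbp (permutation p = 0.646, adjusted p = 0.802). All these values share the array and its normalization.

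**Figure D4:**
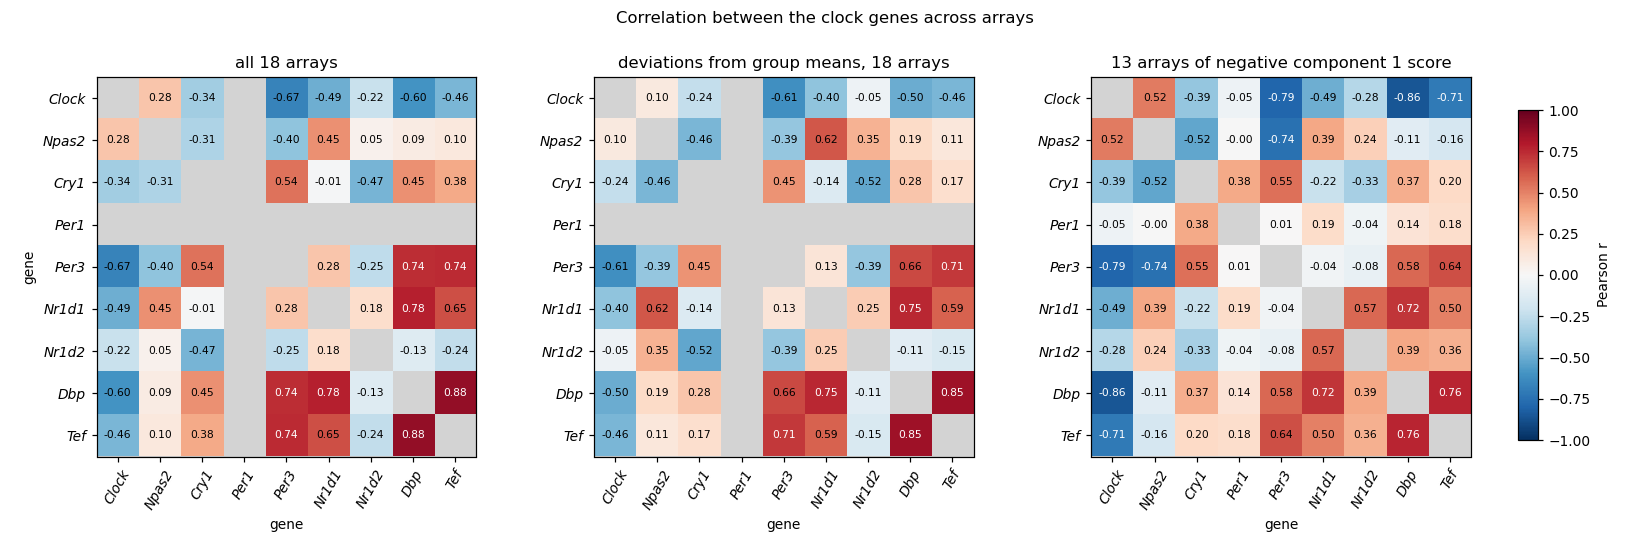
Pearson's r between the clock genes (rows and columns) over all 18 arrays, for deviations from group means, and over the 13 arrays with negative component scores, on a colour scale from -1 to 1, with the diagonal and pooled Per1 values left grey. Dbp is positive with Tef (0.88, 0.85 and 0.76), Nr1d1 and Per3 in each panel, and Clock is negative to Dbp in each panel (-0.60, -0.50 and -0.86).

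By likeness over the 18 arrays, among 11904 genes with signal at or above the median, the genes closest to Dbp were Hdac11, a histone deacetylase (r = 0.96), Slc2a2, the glucose transporter GLUT2 of hepatocytes (0.94), Abhd14b (0.93), Epn1 (0.93) and Sipa1 (0.93). Those most opposite were the proteasome subunit gene Psma3 (-0.92), the pyrophosphatase gene Ppa1 (-0.90), Thap12 (-0.90), the respiratory chain gene Cox5a (-0.89) and Rexo2 (-0.89). In all, 291 genes had an r of at least 0.8 with Dbp and 63 had -0.8 or lower, so likeness of this size was not rare. Other genes of the loop had r = 0.87 (Bhlhe40, the repressor DEC1), 0.82 (Cry2), -0.76 (Rora, an activator at REV-ERB sites), -0.71 (Csnk1a1, a casein kinase) and -0.07 (Arntl) with Dbp. The rest of the measured genes of the loop lay between -0.34 (Arntl2) and 0.46 (Hlf). For Npas2, at background signal, the highest r was 0.79 (Adamts6) and the lowest -0.77 (Tab1). These coefficients describe the same 18 arrays and were given no test.

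The other genes of the loop were a list of 18, of which 15 were measured. Only Arntl2, a paralogue of Bmal1, was called, and it rose in H-PFOS against HFD by 0.87 (SE 0.20, adjusted p = 0.0448). Its signal was 4.29, 4.78 and 4.04 in HFD, around the median of the probe means and not shown to be above background, which limits the size of the difference. It was 5.19, 5.27 and 5.27 in H-PFOS, and the 5 arrays with positive component scores held its 5 highest signals. The call was lost when any 1 of the HFD replicates 1 and 3 or the H-PFOS replicates 1, 2 and 3 was left out (adjusted p = 0.0871 to 0.165) and was kept without HFD replicate 2 (adjusted p = 0.0348). In H-PFNA against HFD, Arntl2 differed by 0.63 (SE 0.20, adjusted p = 0.274). Arntl, the Bmal1 gene itself, differed from the control of its diet by -0.30 to 0.02, with adjusted p-values of 0.525 to 0.986. In L-PFNA, where arrays did not overlap LFD for 19.4% of all probes, 4 of these genes were separated. Bhlhe40 and Cry2 were higher, by 0.63 (SE 0.27, adjusted p = 0.334) and 0.55 (SE 0.22, adjusted p = 0.278). Arntl and Rora were lower, by differences of -0.30 (SE 0.18, adjusted p = 0.525) and -0.23 (SE 0.12, adjusted p = 0.478). Bhlhe41, the repressor DEC2, differed by 0.52, 0.54, 0.60 and 0.60 (SE 0.25 each, adjusted p = 0.426, 0.377, 0.294 and 0.448) in L-PFOS, L-PFNA, H-PFOS and H-PFNA, comparisons that share controls within a diet. In H-PFOS the PAR bZIP gene Hlf was at -0.47 (SE 0.20, adjusted p = 0.306) and its D-box antagonist Nfil3 at -0.41 (SE 0.17, adjusted p = 0.281). The remaining members (Rorb, Ciart, Csnk1e, Csnk1a1, Fbxl21, Btrc and Timeless) were not called in any comparison.

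Of 16 genes with known daily rhythms in liver, 15 were measured. Avpr1a, the hepatic vasopressin receptor, fell in L-PFOS against LFD by 1.15 (difference -1.15, SE 0.21, adjusted p = 0.0296). Elovl3, a fatty acid elongase under REV-ERB control, rose in H-PFOS against HFD (0.92, SE 0.20, adjusted p = 0.039). No other member of this list was called against the control of its diet, where 2 members in L-PFOS and 6 in each of the other exposed groups had an unadjusted p under 0.05. The shares of all probes at that threshold were 11.9% in L-PFOS, 12.9% in L-PFNA, 13.5% in H-PFOS and 9.77% in H-PFNA, so the L-PFOS count lay near the background. Both calls were lost whenever any 1 of the 6 arrays compared was left out (adjusted p = 0.0552 to 0.0951 for Avpr1a and 0.0815 to 0.139 for Elovl3). In L-PFNA the largest differences were those of Wee1, a cell cycle kinase gene (1.03, SE 0.24, adjusted p = 0.0656), and Noct, the deadenylase nocturnin (-0.94, SE 0.38, adjusted p = 0.279). Cyp7a1, the rate-limiting enzyme of bile acid synthesis, differed by -2.54 (SE 0.82, adjusted p = 0.151) in H-PFOS against HFD.

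Genes that report inputs to the clock were read in the same comparisons. Of 8 glucocorticoid-induced genes, all 8 had negative differences in H-PFOS against HFD, with a median of -0.71 against -0.01 over all probes. Of these Tsc22d3, the leucine zipper gene GILZ, fell by 1.26 (difference -1.26, SE 0.24, adjusted p = 0.02), and it was -1.22 (SE 0.24, adjusted p = 0.055) in H-PFNA. The differences of the list from the control of the same diet were negative for 8 of 8 genes in L-PFOS (median -0.31), 7 in L-PFNA (-0.31) and 8 in H-PFNA (-0.52), with none called. For Tsc22d3, Dusp1, Mt1 and Mt2, 4 of the 5 arrays with positive component scores were among the 5 lowest, as for Dbp and Tef. Of the other 4 genes, Sgk1 and Tat had 3 of these arrays among the 5 lowest and Fkbp5 and Zbtb16 had 2, while 3 were among the 5 highest for Zbtb16 and 1 each for Fkbp5 and Sgk1. Of 9 measured genes induced by feeding, Srebf1 (1.27, SE 0.24, adjusted p = 0.02) and Acaca (1.08, SE 0.25, adjusted p = 0.0497), both of fatty acid synthesis, rose in H-PFOS against HFD. In that comparison Pklr of the same list was at -0.62 (SE 0.44, adjusted p = 0.597). The 9 measured genes induced by fasting had differences of both signs there and none was called. They ran from -0.46 for Ppargc1a (SE 0.20, adjusted p = 0.304) to 3.15 for Pdk4 (SE 0.81, adjusted p = 0.0683). Of the fasting list, the coactivator gene Ppargc1a fell in L-PFNA against LFD by 1.10 (difference -1.10, SE 0.20, adjusted p = 0.0163). These calls too rested on few arrays. Acaca lost its call without any 1 of the 6 arrays (adjusted p = 0.0623 to 0.157). Tsc22d3 kept it only without HFD replicate 1 or H-PFOS replicate 3, Srebf1 only without HFD replicate 1 or H-PFOS replicate 2, and Ppargc1a only without LFD replicate 1 or L-PFNA replicate 2, with adjusted p-values of up to 0.0876, 0.0876 and 0.0766 without another array. None of 7 measured temperature-responsive genes was called in any comparison, and at most 1 had an unadjusted p under 0.05 in any. The part of these inputs in the clock gene values was not tested.

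Of the known targets of foreign compounds, Cyp2b10 and Cyp2c55 rose in all exposed groups. Cyp2b10, a target of the receptor CAR, rose by 5.20 (SE 0.67, adjusted p = 0.00391) in L-PFOS, 5.71 (SE 0.67, adjusted p = 0.00125) in L-PFNA, 4.39 (SE 0.67, adjusted p = 0.00621) in H-PFOS and 5.26 (SE 0.67, adjusted p = 0.00193) in H-PFNA. Leaving out 1 array kept each of these calls (adjusted p of at most 0.0421). The controls read 3.81 to 4.58, around the median of the probe means, so their level was not shown to be above background and the sizes of these differences are limited by it. Of 5 measured exposure markers, 2 (Cyp2b10 and Cyp2c55) rose in L-PFOS, L-PFNA and H-PFNA and 5 in H-PFOS, where Cyp2c55 and Ehhadh lost their calls without any 1 array (adjusted p = 0.0502 to 0.0631 and 0.0561 to 0.0903). In H-PFOS the 8 hepatocyte markers all had negative differences from HFD (median -0.18, none called), and the adipocyte list was led by Cidec (2.71, SE 0.67, adjusted p = 0.0584), a lipid droplet gene that fatty hepatocytes also express, with Adipoq at -0.03 (SE 0.17, adjusted p = 0.958). No cell type marker was called in any comparison.

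Between the compounds no clock gene differed beyond the test on either diet. On the low-fat diet PFNA minus PFOS lay between -0.12 (Npas2) and 0.45 (Dbp), every adjusted p being 0.998, and the interval for Dbp was -0.17 to 1.07. On the high-fat diet 7 of 9 differences were positive, from -0.12 (Clock) to 0.74 (Per1), with intervals of 0.09 to 1.40 for Per1 and -0.14 to 1.11 for Dbp. Without the 2 arrays apart from their groups, Per1 was called here as given above. With intervals this wide, and with the doses unknown, the compounds were not shown to act alike.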

How the data were processed

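Biotin-labelled total RNA from liver, isolated with Trizol, was hybridised for 3 biological replicates of each group, per the labels' protocols. The deposited log2 values, 1 for each probe on each array, were produced by the authors in Transcriptome Analysis Console (version not given), according to the submitters' processing notes. The sources used here do not give the background correction, the normalization or the base of the logarithm, and log2 was inferred from the range of the values. For arrays, their number limits the precision.

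All 34472 probes on the 18 arrays entered 1 limma fit of group means (version 3.58.1, R 4.3.3; 12 residual and 5.21 prior degrees of freedom). It gave 9 comparisons, and 2 more between diets within a compound were added after the data were seen. P-values were adjusted by Benjamini and Hochberg over all probes, with calls made below 0.05. Of the probes, 23521 had 1 symbol, 1814 several and 9137 none. Correlations of pairs used 100000 permutations of arrays, within groups for the deviations, and the fit and the correlations were tested on simulated data. Promoter windows came from RefSeq (GRCm38.p6).

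The rule allowed all members and all measured genes of the loop to be named. Of every other list, up to 4 called genes or, with none, the 2 with the largest difference were named, and others named were chosen after their values were seen. Likeness took the 5 highest and 5 lowest r. The members and lists were chosen with earlier results of these data known. Alternatives were quantile normalization, a filter on dim probes, the replicate number as a block, the mean of a gene's probes, the compared groups alone, and leaving out arrays.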

Additional observations from a re-analysis of the deposited data

How the results depend on the processing

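No clock gene was called under quantile normalization, the filter on dim probes (which removes Npas2), the replicate block, the mean of a gene's probes, the compared groups alone or the omission of any 1 array. Per1 was the only clock gene called under any alternative, without the 2 arrays apart from their groups: 1 call each in H-PFOS against HFD, H-PFNA against H-PFOS and H-PFOS against L-PFOS. Signs of uncalled differences turned in 103 of 1285 recomputed values, 82 of them among the 702 that leave out 1 array. The number of probes called moved by more. With quantile normalization it was 2 in HFD against LFD, 85 in L-PFOS against LFD and 0 in H-PFNA against H-PFOS. With the filter on dim probes, which tests fewer probes, it was 2 in HFD against LFD, 270 in L-PFOS and 591 in L-PFNA against LFD, and 794 in H-PFOS and 115 in H-PFNA against HFD. Deviations of arrays with the same replicate number correlated from -0.07 to 0.42 (median -0.00), so the numbers were not taken to pair samples, and the replicate block gave 3 in HFD against LFD and 0 in H-PFNA against H-PFOS, and left Arntl2 in H-PFOS against HFD uncalled (adjusted p = 0.0557). The compared groups alone gave 8 in HFD against LFD, 6 in L-PFOS against LFD, 6 in H-PFNA against HFD and 0 in H-PFNA against H-PFOS, from fewer samples, with Arntl2 uncalled (adjusted p = 0.0895). Without the 2 arrays it was 0 in HFD against LFD, 454 in L-PFOS and 593 in L-PFNA against LFD, 1011 in H-PFOS and 148 in H-PFNA against HFD, 510 in H-PFNA against H-PFOS, 765 in H-PFOS against L-PFOS, and 83 for the interaction of diet with PFOS. Leaving out 1 array gave 0 to 3 in HFD against LFD, 22 to 260 in L-PFOS and 26 to 127 in L-PFNA against LFD, 61 to 184 in H-PFOS and 9 to 34 in H-PFNA against HFD, 0 to 1 in H-PFNA against H-PFOS, and 0 to 33 in H-PFOS against L-PFOS. No pair of clock genes kept an adjusted p under 0.05 for the deviations without those 2 arrays (0 of 36) or without the 5 arrays of positive component score (0 of 36). Where no construction is named, the cause was not tested. With 3 arrays a group, differences under about 0.25 for Nr1d2 and 0.71 for Nr1d1 lay within the 95% intervals.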
